A study of Homo sapiens with 22 samples.

Results

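All 22 tumours of the study entered 1 comparison, in which the 16 tumours given an inhibitor of the RAS–MAPK pathway were set against the 6 tumours given Vehicle. The tumours were xenografts of the human cell line H2110, which was derived from lung adenocarcinoma and which the labels list as WT in genotype, and each was dosed by mouth for 3 days after reaching about 300 mm³. Each inhibitor was given to 4 tumours: RMC-7977 at 10 mg/kg, RMC-4550 at 30 mg/kg, Trametinib at 0.3 mg/kg and Cobimetinib at 3 mg/kg. The effect of each inhibitor was estimated separately and the 4 effects were averaged with equal weight, so that a gene's pooled change is the mean of 4 log2 differences from Vehicle. All tumours came from 1 cell line and 1 time point, the doses differed between compounds, and the host species is not given in the sources used here. The labels call the replicates separate but do not say that each came from its own animal, so p-values measure only how far these samples spread, and that spread may be technical. The 4 comparisons with Vehicle share the same 6 control tumours.

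Signals from growth factor receptors reach RAS through adaptor proteins and the phosphatase SHP2, which PTPN11 encodes, and RAS in its active, GTP-bound form switches on the kinases RAF, MEK and ERK in turn. RMC-4550 inhibits SHP2, RMC-7977 inhibits active RAS proteins, and Trametinib and Cobimetinib inhibit the kinases MEK1 and MEK2. Active ERK induces transcription factors of the ETS and immediate early families within a short time, together with phosphatases and Sprouty proteins that feed back on the pathway, and the transcripts of these genes are widely used as a readout of pathway activity. By its title the study asked about RIT1, a GTPase of the RAS family, as a driver and a drug target in lung adenocarcinoma.

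A library is described by its total count, which lay between 10353740 and 17265754 in 21 tumours and was 7761987 in Trametinib replicate 4. That library stood apart from all others: ribosomal protein genes took 25.0% of its counts against at most 9.24% elsewhere, and its median correlation with the other tumours was 0.751 against at least 0.933. Genes seen with just 1 or 2 counts made up 1.99% of its detected genes and 5.02% of those in RMC-7977 replicate 3, against at least 13.4% in the other 20 tumours. Vehicle replicate 1 and RMC-4550 replicate 1 had the next lowest correlations, 0.933 and 0.936. The pooled results are therefore given with and without Trametinib replicate 4, and counts also without all 4 of these libraries. The epithelial markers EPCAM (290 to 518 CPM, counts scaled to library size) and KRT7 (892 to 1606 CPM) were high in every tumour. The lung lineage markers NKX2-1 (0.147 to 16.5 CPM) and NAPSA (0.151 to 4.15 CPM) were low, and FOXA2 had a count in only 2 tumours.

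The genes that the inhibitors lowered in common included several that ERK is known to induce. Of 17652 genes tested, 22 (0.125%) differed between the inhibitors and Vehicle at an adjusted p under 0.05 by edgeR's quasi-likelihood test, and all 22 were lower in the treated tumours. They included the MAP kinase phosphatases DUSP4, DUSP5 and DUSP6, the feedback inhibitor SPRY4, the transcription factor ETV4, the immediate early gene IER3 and the ERK-responsive gene PHLDA1. Every one of the 22 was lower in the mean of each of the 4 inhibitor groups, and 14 were lower by at least 0.5 on the log2 scale in every group. No gene passed as higher; without adjustment 432 genes were higher and 649 lower at a p under 0.05, and DESeq2 passed 9 higher (0.051%) and 54 lower (0.306%), 63 in all (0.357%). Limma with library weights passed 1365 higher (7.73%) and 1335 lower (7.56%), 2700 in all (15.3%). Below, a gene is said to pass by edgeR unless another tool is named. Without any test, 2718 genes (15.4%) were lower and 2684 (15.2%) higher in the mean of all 4 groups, and 143 (0.81%) and 142 (0.804%) were so by at least 0.5 in each.

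**Figure D1:**
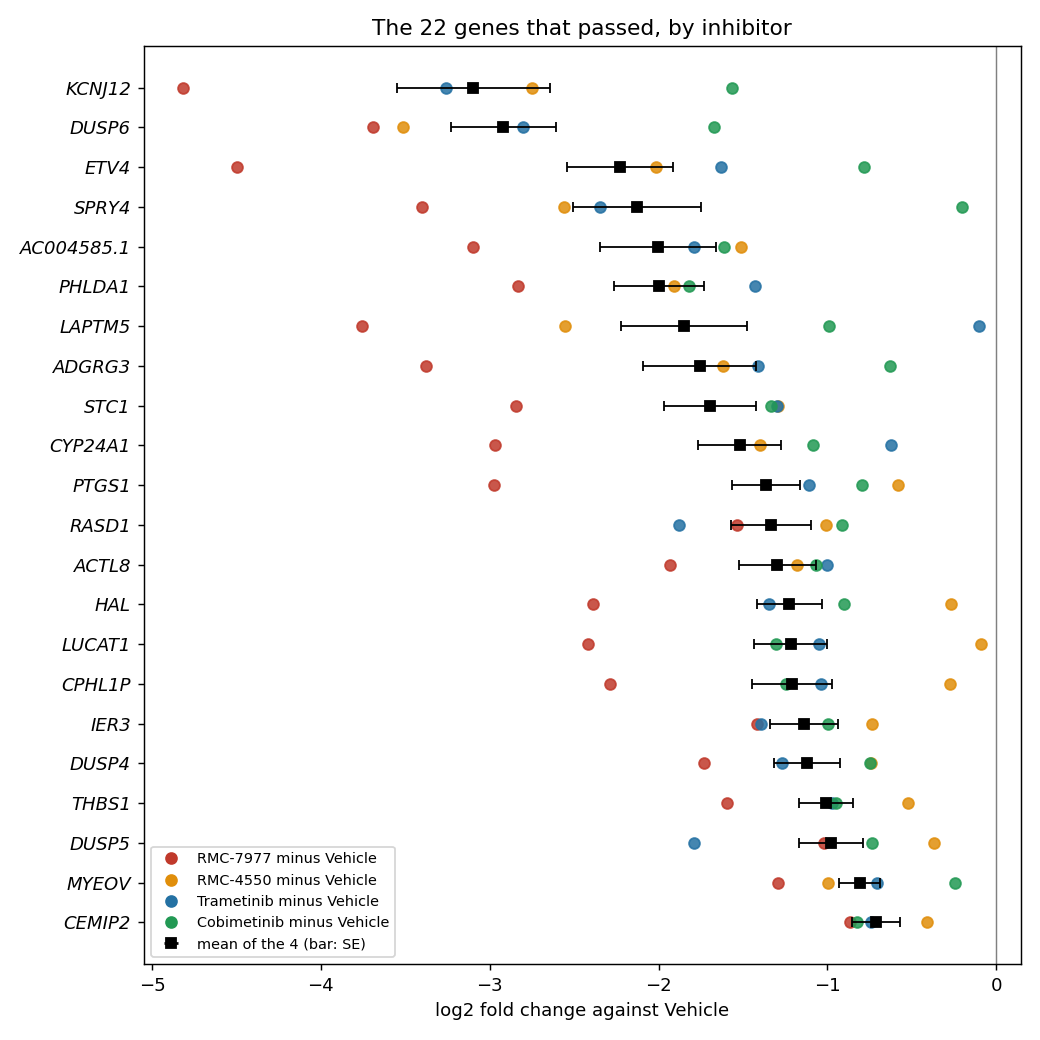
Log2 fold change against Vehicle for the 22 genes that passed the pooled test, 1 row per gene. Coloured circles are the 4 inhibitors, black squares their mean, and bars the standard error of that mean. All points lie left of 0, and RMC-7977 is the leftmost circle for 20 of the 22 genes.

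Leaving out Trametinib replicate 4 raised the count to 53 of 17980 genes (0.295%), 47 of them lower (0.261%) and 6 higher (0.0334%). All 22 genes remained, and of the 53 all but BDNF had the same direction in all 4 groups (52 genes, 0.289%). Changes of at least 0.5 in every group, without a test, then numbered 192 lower (1.07%) and 136 higher (0.756%). Single tumours weighed heavily on the count in other groups too: omitting Vehicle replicate 5 left 8 genes, omitting Vehicle replicate 7 left 14, and omitting Vehicle replicate 2 gave 43. Without the 4 libraries named above, 708 of 17761 genes passed (3.99%), 458 lower (2.58%) and 250 higher (1.41%), with all of the 22 and of the 53 among them.

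DUSP6, a phosphatase that removes phosphate from ERK itself, had the smallest p-value. In the Vehicle tumours its level ranged from 8.05 to 25.8 CPM with a median of 21.2 CPM. Under RMC-7977 the tumours had 1.43, 1.03, 1.79 and 1.45 CPM, and under RMC-4550 they had 1.12, 1.87, 0.957 and 2.46 CPM. Trametinib tumours had 2.79, 3.28, 4.15 and 0 CPM, the last being replicate 4, where a count of 0 allows up to 0.480 CPM by counting error alone. Cobimetinib tumours were highest of the treated, at 5.53, 6.50, 4.08 and 7.15 CPM. All 16 treated tumours thus lay below the lowest Vehicle tumour, a separation seen for 3 of all genes tested (0.017%). The pooled log2 fold change was −2.92 ± 0.31 (SE, n = 16 against 6), a 7.57-fold lower level, with an adjusted p of 6.64e-05 by edgeR's quasi-likelihood test. Without Trametinib replicate 4 the change was −2.84 ± 0.20 with an adjusted p of 8.75e-08.

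The other genes with full separation were ACTL8 and AC004585.1. ACTL8, an actin-like gene of the cancer-testis group, ranged from 11.8 to 21.4 CPM under Vehicle (median 15.3) and from 2.47 to 11.7 CPM in the treated tumours (median 6.37). Its pooled change was −1.30 ± 0.23 on the log2 scale (adjusted p = 0.0132), and the 4 inhibitors lay between −1.0 and −1.93. With a GC correction ACTL8 did not pass. AC004585.1, a long intergenic RNA on chromosome 17, from 40517026 to 40527002 on the plus strand in hg38, was named after its values were seen. It had 2.25 to 5.89 CPM under Vehicle and 0 to 1.97 CPM in the treated tumours, a pooled change of −2.0 ± 0.34 (adjusted p = 0.0116).

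**Figure D2:**
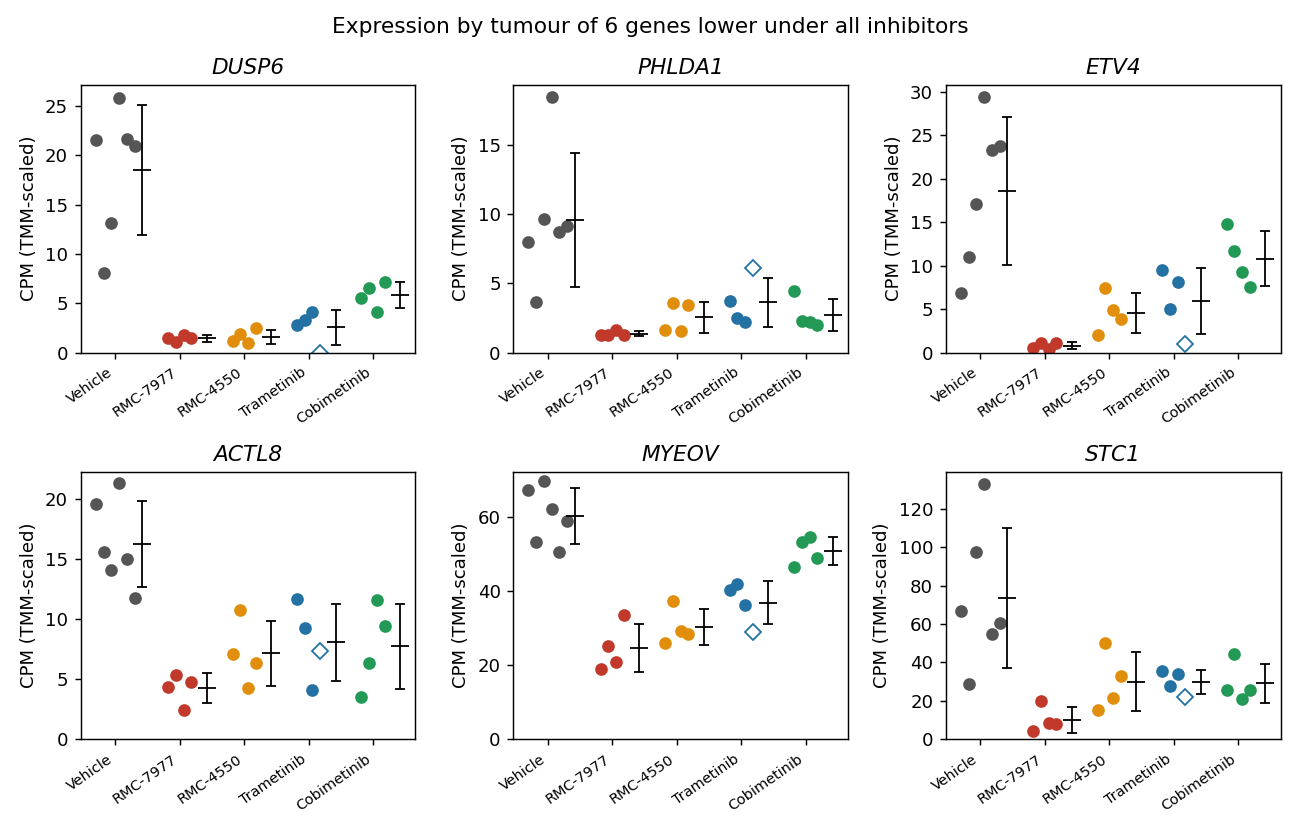
Expression of 6 of the 22 genes by tumour, in CPM on a linear axis with 1 point per tumour; horizontal ticks and bars are the group mean and SD, and the open diamond is Trametinib replicate 4. For DUSP6 and ACTL8 every treated tumour lies below the Vehicle tumours, while for ETV4 and MYEOV the Cobimetinib tumours overlap them.

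The phosphatases DUSP4 and DUSP5, which act on MAP kinases in the nucleus, were lower as well. DUSP4 on chromosome 8 had 310 to 500 CPM under Vehicle (median 421) and 68.0 to 352 CPM in the treated tumours (median 193), and 15 of the 16 lay below every Vehicle tumour. The exception was RMC-4550 replicate 2. Its pooled change was −1.12 ± 0.20 (adjusted p = 0.0125). DUSP5 had 22.1 to 41.8 CPM under Vehicle and 7.16 to 33.9 CPM under the inhibitors, with 13 of 16 below the lowest Vehicle tumour and a pooled change of −0.98 ± 0.19 (adjusted p = 0.0315). DUSP5 was 1 of the 2 genes of the 22 for which Trametinib gave the largest change of the 4 inhibitors: its tumours had 8.59, 8.69, 7.16 and 9.28 CPM, a change of −1.79, beside −1.02 under RMC-7977. Of the 9 dual-specificity phosphatases tested these 3 passed with and without Trametinib replicate 4, beside 0.125% and 0.261% lower over all genes. The median change of the 9 was −0.21 against −0.01 over all genes.

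Sprouty and SPRED proteins dampen the pathway above RAF. SPRY4 had 1.93 to 5.31 CPM under Vehicle. RMC-7977 tumours had 0.286, 0.238, 0 and 0.692 CPM, and RMC-4550 tumours 0.774, 0.644, 0.368 and 0.492 CPM. Trametinib tumours had 0.979, 0.355, 1.14 and 0 CPM. Cobimetinib tumours had 3.11, 2.24, 2.58 and 3.82 CPM, all inside the Vehicle range. The 12 tumours of the other inhibitors all lay below the lowest Vehicle tumour. The counts of 0 allow up to 0.255 CPM in RMC-7977 replicate 3 and 0.480 CPM in Trametinib replicate 4. The pooled change was −2.13 ± 0.38 (adjusted p = 0.0136), and the 4 inhibitors differed from each other (adjusted p = 0.0287, a test with 3 degrees of freedom in the same model).

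Of the 7 genes of this family SPRY4 alone passed with all tumours. SPRY2 changed by −0.45 ± 0.13 (adjusted p = 0.412) and passed without Trametinib replicate 4 (−0.52, adjusted p = 0.0337). SPRED1 changed by −0.58 ± 0.15 (adjusted p = 0.259) and SPRY1 by −0.64 ± 0.24 (adjusted p = 0.651). With all tumours DESeq2 passed SPRY4 and SPRED1, and limma 5 of the 7, all lower, beside 7.56% lower over all genes. Without the 4 libraries that stood apart, 5 of the 7 passed, all lower, beside 2.58% lower over all genes.

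ETV4 is an ETS transcription factor of the PEA3 group, whose transcript ERK raises. Its level was 6.86 to 29.3 CPM under Vehicle, with a median of 20.2 CPM. RMC-7977 tumours had 0.572, 1.11, 0.425 and 1.11 CPM and RMC-4550 tumours 1.98, 7.47, 4.93 and 3.87 CPM. Trametinib tumours had 9.49, 4.96, 8.14 and 0.960 CPM, and Cobimetinib tumours 14.7, 11.7, 9.25 and 7.52 CPM. In all, 9 of the 16 treated tumours lay below the lowest Vehicle tumour and none of the Cobimetinib tumours did. The pooled change was −2.23 ± 0.31 (adjusted p = 0.00246). The inhibitors differed, with changes of −4.49 for RMC-7977, −2.02 for RMC-4550, −1.63 for Trametinib and −0.78 for Cobimetinib (adjusted p of the difference 0.0144). ETV5, the related factor, narrowly missed the threshold with all tumours at −1.14 ± 0.24 (adjusted p = 0.0583) and passed without Trametinib replicate 4 at −1.19 (adjusted p = 0.0246). These were the only calls among the 12 ETS and CIC genes tested. DESeq2 and limma each passed ETV4 and ETV5 with all tumours. ETS2 changed by −0.16 and ATXN1, a partner of CIC, by 0.16.

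PHLDA1, which encodes a pleckstrin homology-like protein, had 3.62 to 18.5 CPM under Vehicle (median 8.92). RMC-7977 tumours had 1.24, 1.27, 1.62 and 1.24 CPM, and 13 of all 16 treated tumours lay below the lowest Vehicle tumour. The pooled change was −2.0 ± 0.27 (adjusted p = 0.00155), and no difference among inhibitors passed (adjusted p = 0.287), whose changes ran from −1.43 to −2.83.

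Immediate early genes are transcribed within minutes of growth factor stimulation. IER3 had 47.5 to 119 CPM under Vehicle and 23.4 to 66.6 CPM in the treated tumours, a change of −1.14 ± 0.20 (adjusted p = 0.0132), with 11 of 16 below every Vehicle tumour. Of the 16 tested members of this list IER3 was the only one to pass with all tumours by edgeR. With all tumours DESeq2 passed EGR1 and JUNB as well, and limma 8 of the 16, all lower, beside 7.56% lower over all genes. EGR1, a zinc finger factor, had 2.83 to 18.1 CPM under Vehicle and 0 to 9.29 CPM under the inhibitors, and its change of −2.13 ± 0.44 had an adjusted p of 0.0556. JUNB, a subunit of AP-1, changed by −1.03 ± 0.21 with an adjusted p of 0.0560. Both passed without Trametinib replicate 4, EGR1 at −2.05 (adjusted p = 0.0159) and JUNB at −1.02 (adjusted p = 0.0461). FOSL1, another AP-1 subunit, had 20.2 CPM in Trametinib replicate 4, above all 21 other tumours, and 1.47 to 3.09 CPM in the other Trametinib tumours. With that library its pooled change was −1.30 ± 0.39 (adjusted p = 0.444), and without it −1.68 ± 0.27 (adjusted p = 0.00439).

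The 10 genes fixed as MAPK output (PHLDA1, SPRY2, SPRY4, DUSP4, DUSP6, CCND1, EPHA2, EPHA4, ETV4 and ETV5) can be summed into a score, the mean log2 CPM of the 9 that had enough counts. The list is one chosen with results on these tumours known, so the score is given without a test. Vehicle tumours scored 4.81 ± 0.37 (SD, n = 6), while RMC-7977 tumours scored 2.67 ± 0.27, RMC-4550 tumours 3.31 ± 0.41, Trametinib tumours 3.23 ± 0.77 and Cobimetinib tumours 4.18 ± 0.21 (SD, n = 4 each). The equal-weight difference from Vehicle was −1.46, and −1.37 without Trametinib replicate 4, which at 2.08 was the lowest of all tumours. Of the 16 treated tumours 15 scored below every Vehicle tumour, the exception being Cobimetinib replicate 1 at 4.43, above the lowest Vehicle tumour at 4.37. All 9 genes were lower in the mean of each inhibitor group, with a median pooled change of −1.14 against −0.01 over all genes. Of the 9, 5 passed with all tumours and 7 without Trametinib replicate 4, beside 0.125% and 0.261% lower over all genes. With all tumours DESeq2 passed 6 and limma all 9, beside 0.306% and 7.56% lower over all genes. CCND1, which encodes cyclin D1, changed by −0.53 ± 0.22 (adjusted p = 0.732) and the receptor EPHA2 by −0.82 ± 0.29 (adjusted p = 0.619). Both passed by edgeR without the 4 libraries that stood apart (adjusted p = 0.0332 and 0.00271), and by limma with all tumours. In the former fit 2.58% of all genes passed as lower.

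**Figure D3:**
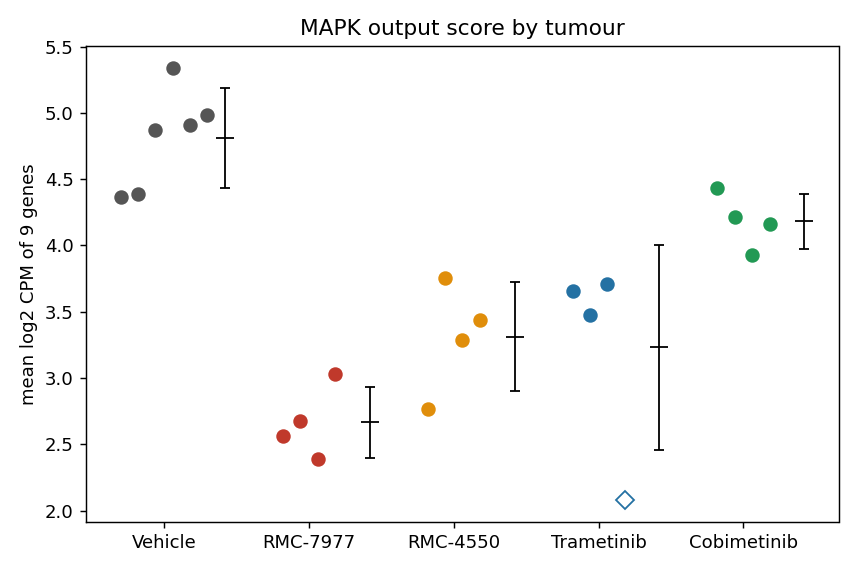
MAPK output score, the mean log2 CPM of 9 genes, by tumour; each point is a tumour, ticks and bars are the group mean and SD, and the open diamond is Trametinib replicate 4. Vehicle tumours lie between 4.37 and 5.34, and all treated tumours but Cobimetinib replicate 1 lie below them.

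Other genes that passed have known roles outside the pathway's feedback loop. RASD1, a RAS-related GTPase induced by dexamethasone, had 16.5 to 63.1 CPM under Vehicle and 6.48 to 33.6 CPM in the treated tumours, a change of −1.33 ± 0.24 (adjusted p = 0.0132). Trametinib moved it more than the other inhibitors did, as for DUSP5, and its Trametinib tumours had 6.48, 8.42, 14.4 and 17.1 CPM. STC1, which encodes the secreted hormone stanniocalcin 1, had 28.7 to 133 CPM under Vehicle and 4.48 to 49.9 CPM under the inhibitors, with 11 of 16 below every Vehicle tumour. Its change was −1.69 ± 0.27 (adjusted p = 0.00552), between −1.30 and −1.34 for 3 of the inhibitors and −2.85 for RMC-7977. CYP24A1, the hydroxylase that inactivates vitamin D, had 18.7 to 36.4 CPM under Vehicle and 2.13 to 29.5 CPM under the inhibitors, a change of −1.52 ± 0.25 (adjusted p = 0.00552). Its 3 treated tumours inside the Vehicle range included Trametinib replicates 1 and 2 at 19.6 and 29.5 CPM and RMC-4550 replicate 4 at 19.6 CPM.

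PTGS1, THBS1, CEMIP2 and HAL were also lower. PTGS1, the cyclooxygenase COX-1, had 13.3 to 32.7 CPM under Vehicle and 2.29, 2.38, 2.81 and 3.67 CPM under RMC-7977. The other 12 treated tumours ranged more widely, up to 18.6 CPM under RMC-4550. The pooled change was −1.36 ± 0.20 (adjusted p = 0.00286), with the smallest p for a difference among inhibitors of the 22 genes (adjusted p = 0.00817). THBS1, which encodes the matrix protein thrombospondin 1, changed by −1.01 ± 0.16 (adjusted p = 0.00552), with 13 of 16 treated tumours below all Vehicle tumours. CEMIP2, a cell-surface hyaluronidase, changed by −0.71 ± 0.14 (adjusted p = 0.0437), the smallest change of the 22. HAL, histidine ammonia-lyase, had 29.4 to 101 CPM under Vehicle and 8.20 to 17.4 CPM under RMC-7977, but 47.3 to 59.0 CPM under RMC-4550. Its pooled change was −1.23 ± 0.19 (adjusted p = 0.00521) and its inhibitors differed (adjusted p = 0.0108).

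The remaining genes that passed were named after their values were seen, apart from LUCAT1 and LAPTM5. KCNJ12, an inward rectifier potassium channel, showed the largest pooled change, −3.10 ± 0.45 (adjusted p = 0.00286), from 0.563 to 5.20 CPM under Vehicle to 0 to 1.55 CPM under the inhibitors. It has near-identical copies on the same chromosome, so its count is uncertain. MYEOV, named for its overexpression in myeloma, had 50.5 to 69.7 CPM under Vehicle and 18.9 to 54.7 CPM under the inhibitors. It changed by −0.81 ± 0.12 (adjusted p = 0.00286) and was 1 of the 2 genes of the 22, with DUSP6, that passed for RMC-4550 on its own (adjusted p = 0.0326 and 0.0191). The adhesion receptor gene ADGRG3 changed by −1.76 ± 0.33 (adjusted p = 0.0267), and the unitary pseudogene CPHL1P by −1.21 ± 0.24 (adjusted p = 0.0335).

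LUCAT1, a long noncoding RNA annotated as antisense, had 27.8 to 122 CPM under Vehicle and 12.7, 13.3, 16.2 and 14.8 CPM under RMC-7977. Under RMC-4550 its tumours had 87.1, 76.6, 45.0 and 76.8 CPM, inside the Vehicle range, and Trametinib and Cobimetinib tumours had 24.1 to 39.3 CPM. The pooled change was −1.22 ± 0.22 (adjusted p = 0.0132), made of changes from −2.42 under RMC-7977 to −0.09 under RMC-4550, and the inhibitors differed (adjusted p = 0.0129). The labels describe libraries that mark strand, but the strand setting of the counting is not given in the sources used here, so reads of LUCAT1 and of any gene on the opposite strand may not have been told apart.

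LAPTM5 encodes a lysosomal membrane protein known mainly from blood cells. Its level was 0.805 to 8.59 CPM under Vehicle and 0.0692 to 7.31 CPM under the inhibitors, a change of −1.85 ± 0.37 (adjusted p = 0.0480). The inhibitors differed (adjusted p = 0.0189), from −3.75 under RMC-7977 to −0.10 under Trametinib. Only 4 of the 16 treated tumours lay below every Vehicle tumour, and the gene no longer passed in 19 of the 22 fits that each left out 1 tumour. LAPTM5 was the only one of 7 tested myeloid markers to pass. The summed level of the 14 myeloid markers was 90.5 to 1063 CPM under Vehicle and 106 to 5021 CPM in the treated tumours. The highest value came from 1 tumour of the Trametinib group, which includes replicate 4, the library that stood apart. The median of that group was 369 CPM, and every tumour of the other inhibitors lay below the highest Vehicle tumour. The Trametinib group also held the highest summed levels of endothelial (262 CPM), muscle (73.9 CPM), red blood cell (53.0 CPM), lymphocyte (38.9 CPM) and adipocyte markers (37.3 CPM). Fibroblast markers were highest in a Vehicle tumour (307 CPM). Single myeloid markers differed widely: TYROBP and AIF1 were at 0 in all Vehicle tumours, and CD68 and LYZ did not exceed 0.0785 CPM there. In the same tumours S100A9 had 31.4 to 845 CPM, S100A8 5.71 to 192 CPM and MRC1 2.30 to 41.4 CPM. CD14 had 7.97 to 16.9 CPM and CSF1R 1.43 to 4.51 CPM under Vehicle. The part of myeloid or host cells in the LAPTM5 result was not tested, and in a bulk tumour fewer cells of a type and less RNA per cell cannot be told apart.

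The shared falls rested on RMC-7977 more than on any other inhibitor. Among the 22 genes RMC-7977 gave the largest change in 20 and Trametinib in 2, while RMC-4550 gave the smallest in 11, Cobimetinib in 7 and Trametinib in 4. The median change of the 22 was −2.62 for RMC-7977, −1.32 for Trametinib, −1.09 for RMC-4550 and −0.97 for Cobimetinib. Over all genes 132 (0.748%) passed for RMC-7977 alone and 5 (0.0283%) for RMC-4550, of which 21 and 2 were among the 22. No gene (0%) passed for Trametinib or Cobimetinib alone by edgeR. Without adjustment 3327 and 582 genes had a p under 0.05, and DESeq2 passed 369 and 1 and limma with library weights 7874 and 401. No gene passed in all 4 comparisons at once with all tumours by edgeR or DESeq2, and 15 did with limma. DUSP6 did so without the 4 libraries that stood apart, with changes of −3.79, −3.35, −2.42 and −1.63 for RMC-7977, RMC-4550, Trametinib and Cobimetinib (adjusted p = 1.20e-05, 0.000163, 0.00245 and 0.0344). With only Trametinib replicate 4 left out, 541 genes (3.01%) passed for RMC-7977, 11 (0.0612%) for RMC-4550, 1 (0.00556%) for Trametinib and 2 (0.0111%) for Cobimetinib. The set of 4 libraries was chosen with earlier results of these data known.

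When the RMC-7977 group was left out, only DUSP6 passed (1 of 17413 genes, 0.00574%), with a change of −2.66 and an adjusted p of 0.00967. The other 21 genes no longer passed, although each kept a negative mean over the other 3 inhibitors. Their changes in this fit lay between −0.65 and −2.52, and the median of the 22 was −1.06 against −1.35 with all 4 inhibitors. PHLDA1, KCNJ12 and MYEOV came nearest to the threshold, each with an adjusted p of 0.126. Leaving out the Trametinib group gave 61 genes instead.

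**Figure D4:**
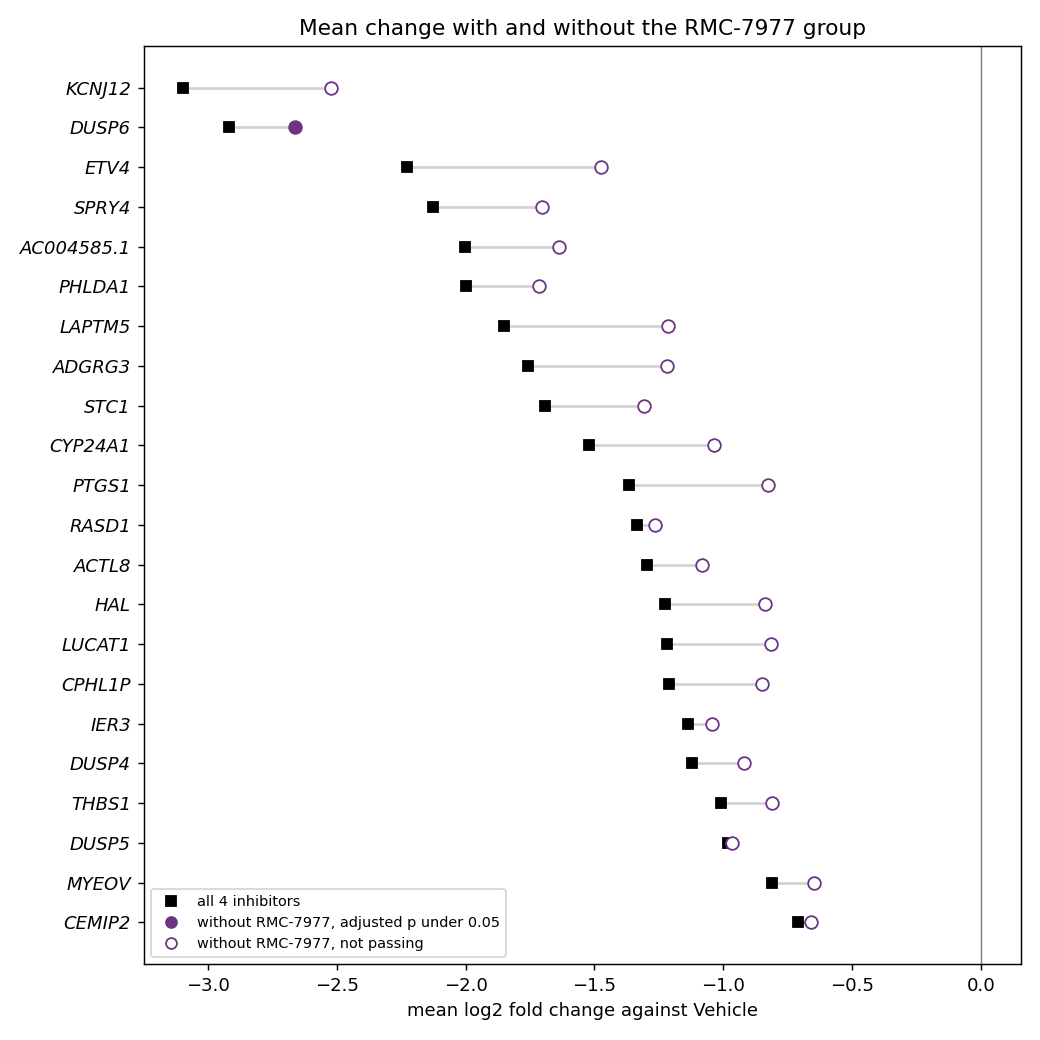
Mean log2 fold change of the 22 genes over all 4 inhibitors (black squares) and over the other 3 when the RMC-7977 group is left out (circles, filled where the gene still passed). All circles stay left of 0, most are nearer to it than the squares, and DUSP6 is the only filled circle.

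The 4 inhibitors differed from each other in 193 of the 17652 genes (1.09%), and in 9 of the 22. Besides ETV4, SPRY4, PTGS1, HAL, LUCAT1 and LAPTM5 these were MYEOV (adjusted p = 0.0219), CYP24A1 (0.0276) and CPHL1P (0.0400). For MYEOV the changes were −1.29 for RMC-7977, −0.99 for RMC-4550, −0.71 for Trametinib and −0.25 for Cobimetinib. For DUSP6 the difference missed the threshold (adjusted p = 0.0826), with −3.69, −3.52, −2.80 and −1.67 in the same order. Leaving out Trametinib replicate 4, the inhibitors differed in 194 genes (1.08%), 18 of them among the 52 that passed with 1 direction in all groups. Without the RMC-7977 group 1 gene in all differed among the other 3 inhibitors. Trametinib and Cobimetinib share their target kinases but were given at different doses, so their values are set side by side only.

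The 31 genes that passed only without Trametinib replicate 4 comprised 25 lower and 6 higher genes. In 11 of the 31 that tumour had a higher level than all 21 others, and in 6 the Trametinib mean had the opposite sign when it was kept. The common dispersion fell from 0.136 to 0.0824 without it, a biological coefficient of variation of 0.368 against 0.287. Its place within either set is a description only, because the 22 passed with this tumour included and the 31 did not. Among the 22 genes that passed either way, this tumour was above the Vehicle median in none and below every Vehicle tumour in 16. The largest shift of a pooled change when it was left out was 0.10 on the log2 scale. Besides the genes above, those that passed only without it included the protease gene PAPPA (−0.84, adjusted p = 0.0159), the immune receptor gene TREM1 (−1.06, adjusted p = 0.00769) and PDE4B, a cyclic AMP phosphodiesterase (−0.68, adjusted p = 0.0159), named after their values were seen. The keratin KRT8 changed by −0.60 (adjusted p = 0.0246), from 1331 to 2395 CPM under Vehicle.

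**Figure D5:**
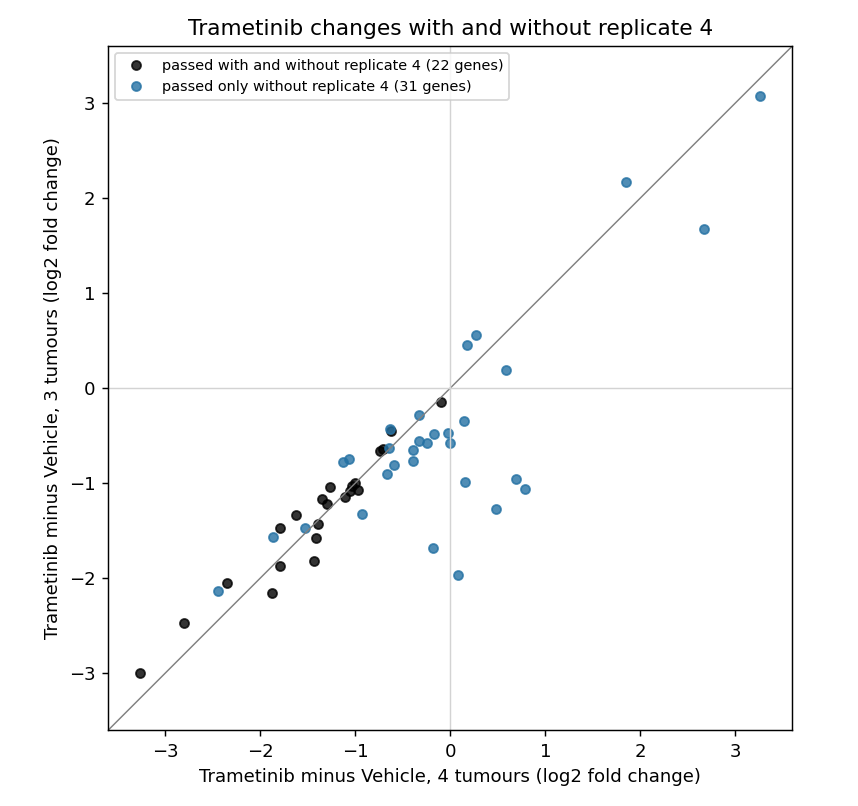
Trametinib log2 fold change against Vehicle with replicate 4 (horizontal axis) and without it (vertical axis) for the 53 genes that passed the pooled test without that tumour; black, 22 that also passed with it; blue, 31 that did not. Black points follow the diagonal, and several blue points lie below it on the right, where replicate 4 had the highest level.

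Few genes passed as higher. The 6 higher genes found without Trametinib replicate 4 were RDH12, SOCS2, REL, CRYBG3, PHACTR2P1 and AC006059.1, named after their values were seen. RDH12, a retinol dehydrogenase, had 0.0884 to 0.457 CPM under Vehicle and 0.408 to 4.48 CPM in the treated tumours. All but 1 treated tumour, Cobimetinib replicate 3, exceeded every Vehicle tumour. 1 gene had every treated tumour above every Vehicle tumour once Trametinib replicate 4 was left out (0.00556%), AF117829.1, and it missed the threshold (0.70, adjusted p = 0.0518). The change of RDH12 was 2.12 ± 0.46 with all tumours (adjusted p = 0.0769) and 1.87 ± 0.35 without Trametinib replicate 4 (adjusted p = 0.0168). SOCS2, a suppressor of cytokine signalling, had 2.30 to 5.66 CPM under Vehicle. RMC-7977 tumours had 17.2, 11.7, 16.9 and 13.1 CPM and RMC-4550 tumours 12.8, 6.44, 12.4 and 12.2 CPM, all above the Vehicle range. Trametinib tumours had 4.44, 5.14, 5.13 and 10.7 CPM and Cobimetinib tumours 7.05, 4.64, 4.42 and 5.45 CPM, so that 6 of these 8 lay inside it. The inhibitors differed for SOCS2 (adjusted p = 0.0400, and 0.00821 without Trametinib replicate 4), with changes of 1.81 for RMC-7977, 1.39 for RMC-4550, 0.58 for Trametinib (0.19 without its replicate 4) and 0.37 for Cobimetinib. Its pooled change of 1.04 ± 0.23 had an adjusted p of 0.0813, and 0.0316 without Trametinib replicate 4.

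Short stretches before the transcription start are shown for 4 genes whose upstream sequence held a searched motif, those of smallest pooled p among the genes chosen by the naming rule, as a description of what lies there. Promoters came from RefSeq on GRCh38.p14 (250 bases before to 50 after the start), and 11 of the 22 genes and 25 of the 46 genes lower in all groups without Trametinib replicate 4 had one. Both strands were searched for an AP-1 site (TGANTCA), the CArG box bound by serum response factor, an ETS site (CCGGAAG), a FOXO site (TGTTTAC) and the octamer of the repressor CIC. Capitals mark the match. Of all 27305 promoters 7.76% held the AP-1 site, 1.29% the CArG box, 10.7% the ETS site, 3.41% the FOXO site and 2.42% the CIC octamer. Of the 11060 promoters of genes tested these shares were 4.98%, 1.04%, 18.2%, 2.46% and 1.71% in the same order. Of the 11 genes of the 22 that had a promoter LUCAT1 alone held any, and the others of the 22 could not be searched. EGR1, JUNB and KRT8 are among the genes that passed without Trametinib replicate 4. PAPPA and TLE6, outside that rule, held a FOXO site and a CIC octamer and are not shown. KRT8 also held a CIC octamer, which did not lie wholly before the start and is not shown.
LUCAT1, an AP-1 site 52 bases before the start, minus strand, chr5:91314408-91314494: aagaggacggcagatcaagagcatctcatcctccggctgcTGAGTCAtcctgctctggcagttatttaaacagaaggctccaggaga
EGR1, CArG boxes 105 and 83 bases before the start, plus strand, chr5:138465334-138465445: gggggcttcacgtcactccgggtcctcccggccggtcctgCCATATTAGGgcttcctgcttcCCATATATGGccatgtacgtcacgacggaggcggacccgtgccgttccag
JUNB, a FOXO site 166 bases before the start, plus strand, chr19:12791280-12791366: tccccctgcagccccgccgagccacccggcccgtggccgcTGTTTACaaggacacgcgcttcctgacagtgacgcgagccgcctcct
KRT8, an ETS site on the reverse strand 58 bases before the start, minus strand, chr12:52926481-52926567: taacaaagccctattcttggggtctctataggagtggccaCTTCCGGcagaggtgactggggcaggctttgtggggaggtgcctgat
A match of these letters is not a measured binding site.

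The components of the pathway itself did not pass. None of 29 RAS pathway genes tested had an adjusted p under 0.05 with all tumours by edgeR, and the median change was 0.07. At an unadjusted p under 0.05, 3 were higher and none lower, beside 432 higher and 649 lower of all 17652 genes. DESeq2 passed none, and limma with library weights passed 9 higher and 1 lower, beside 7.73% higher and 7.56% lower over all genes. RIT1 changed by 0.15 ± 0.13 (adjusted p = 0.834), from 118 ± 17.1 CPM (SD, n = 6) under Vehicle. NRAS changed by 0.27 ± 0.22, HRAS by −0.05 ± 0.12, PTPN11 by −0.06 ± 0.15, MAP2K1 by 0.04 ± 0.13 and MAP2K2 by 0.03 ± 0.16. The adaptor genes GAB1 and SOS1 changed by 0.37 ± 0.14 and 0.25 ± 0.11, and each exceeded all Vehicle tumours in 11 of 16 treated tumours. Without the 4 libraries that stood apart, GAB1 (0.38, adjusted p = 0.0485), SOS1 (0.30, adjusted p = 0.0476) and BRAF were among 4 of the 29 that passed as higher. Over all genes 1.41% passed as higher in that fit.

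Ligands of the EGF receptor did not pass, though 3 of 7 were lower at an unadjusted p under 0.05, beside 649 of all 17652 genes. The 3 were AREG at −1.01 ± 0.27 (adjusted p = 0.285), EREG at −1.05 ± 0.29 (adjusted p = 0.320) and HBEGF at −0.92 ± 0.30 (adjusted p = 0.515). Their Vehicle levels varied widely, AREG having 25.4 ± 18.3 CPM (SD, n = 6). DESeq2 passed none of the 7, and limma with library weights 3 lower and 1 higher, beside 7.56% lower and 7.73% higher over all genes.

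With all tumours the lists of DNA replication, glycolysis and hypoxia, FOXO-linked and mesenchymal genes held no gene that passed by edgeR or DESeq2. Without the 4 libraries that stood apart, edgeR passed ALDOA and VEGFA of the second list as lower. It also passed IRS2 as lower and TSC22D3 as higher of the third, and TNC of the fourth as lower. Over all genes that fit passed 2.58% as lower and 1.41% as higher. Of 29 DNA replication genes 26 had a negative change, against 50.9% of all genes tested, with a median of −0.16. At an unadjusted p under 0.05, 5 were lower, beside 649 of all 17652 genes. Limma passed 6, all lower, beside 7.56% lower over all genes. CDC45, a helicase component, changed by −0.40 ± 0.12 (adjusted p = 0.476) and RRM2, a ribonucleotide reductase subunit, by −0.42 ± 0.14 (adjusted p = 0.571). Of 20 glycolysis and hypoxia genes 18 had a negative change, with a median of −0.29. Limma passed 5 lower and 1 higher, beside 7.56% lower and 7.73% higher over all genes. PKM, pyruvate kinase, changed by −0.36 ± 0.14 (adjusted p = 0.645). Of 20 genes linked to FOXO factors 11 were negative and 9 positive. TSC22D3, a glucocorticoid-induced gene, changed by 0.56 ± 0.19 (adjusted p = 0.597), and its inhibitors differed (adjusted p = 0.00129): it was 1.96 under RMC-7977 and between −0.07 and 0.27 under the others. The insulin receptor substrate gene IRS2 changed by −0.73 ± 0.22 (adjusted p = 0.476). All 9 tested mesenchymal and invasion genes had a negative change, with a median of −0.57, and none passed. At an unadjusted p under 0.05, 3 were lower, beside 649 of all 17652 genes. Limma passed 5, all lower, beside 7.56% lower over all genes.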

How the data were processed

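RNA was sequenced from strand-marking libraries of 22 tumours. The deposited table holds the authors' raw read counts per gene, 1 column per tumour, for 58735 genes. Per the submitters' processing notes the genome was hg38 and the tools were edgeR (3.22.5), DESeq2 (1.20.0), featureCounts (1.5.0-p3), HISAT2 (2.0.5) and fastp. Not given in the sources used here are the annotation release, the strand setting and whether host reads were removed. Gene positions matched GENCODE 29 for all 58735.

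Counts were analysed in R (4.3.3) with edgeR (4.0.16). Its filter on low counts (minimum 10, 5 groups) left 17652 genes, which held 99.7% of all counts. TMM factors scaled the libraries, and 1 robust quasi-likelihood model with 1 mean per group was fitted to all tumours. The pooled contrast was the mean of the 4 inhibitor means minus the Vehicle mean, 2-sided, with Benjamini-Hochberg adjustment over all genes tested and a threshold of 0.05. A test with 3 degrees of freedom asked whether the inhibitors differed. CPM values are on TMM-scaled library sizes; their log2 has a prior count of 2. The limits given for a count of 0 (3 counts) cover counting error only. SE values come from the quasi-likelihood fit and include the spread between samples, and SD values are between tumours.

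Genes were named by a rule: among protein-coding genes that passed with and without Trametinib replicate 4, with 1 sign in all groups and averaging at least 2 in log2 CPM, the 12 in each direction whose least-moved group moved most and the 5 with the largest mean change; up to 4 members per list described; the 5 with the smallest p for a difference among inhibitors; and always the 10 MAPK output genes, RIT1, NRAS, HRAS, PTPN11, MAP2K1 and MAP2K2. The comparison, the 33 gene lists (521 entries, 2 matched by another symbol) and the tests were chosen with earlier results of these data known.

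Alternatives were DESeq2 (1.42.0), limma with library weights (3.58.1), other scaling or filters, a GC correction, 1 surrogate variable (sva 3.50.0), testing for a log2 change beyond 0.5, the treated tumours as 1 group, the replicate number as a block, and leaving out tumours or inhibitors. Chosen after seeing the data were DESeq2, limma, RLE scaling and the GC correction without Trametinib replicate 4. Of 12 pairs of Vehicle and treated tumours with the same number 7 had deviations correlated over 0.1 (−0.26 to 0.71), so the numbers were not taken as pairs. On simulated data of this design with 17382 genes, the pooled test found 10.4% of 1.5-fold, 38.1% of 2-fold and 92.1% of 4-fold changes, with 5 false calls of 94.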

Additional observations from a re-analysis of the deposited data

Results flagged for a closer look

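Among 125 sets of values within a group, 7 tumours stood far from the rest of their group by Dixon's criterion, and chance flags about 1 in 20 sets, or 6.25 here. PHLDA1 was 1.62 CPM in RMC-7977 replicate 3 against 1.24 to 1.27 CPM in the other tumours of the group, and 4.42 CPM in Cobimetinib replicate 1 against 2.01 to 2.24 CPM. AC004585.1 was 0.0953 CPM in RMC-7977 replicate 1 against 0.553 to 0.634 CPM. IER3 was 64.2 CPM in Cobimetinib replicate 2 against 34.3 to 35.6 CPM. Trametinib replicate 4 stood apart in its MAPK output score (2.08 against 3.47 to 3.71) and in the share of counts in ribosomal protein genes (25.0% against 3.93% to 6.6%). That share was 6.93% in Vehicle replicate 1 against 3.37% to 4.10%.

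For 9 of the 22 shared falls the size of the fall differed among the 4 inhibitors, with adjusted p-values by edgeR's quasi-likelihood test of 0.00817 for PTGS1, 0.0108 for HAL, 0.0129 for LUCAT1, 0.0144 for ETV4, 0.0189 for LAPTM5, 0.0219 for MYEOV, 0.0276 for CYP24A1, 0.0287 for SPRY4 and 0.0400 for CPHL1P.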

How the results depend on the processing

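On simulated data of this design the pooled test found 38.1% of 2-fold changes, so a gene that did not pass may still differ. All 990 pooled changes of the 22 genes over all settings tried were negative. The genes were picked as lower in these same tumours, so that sign was largely fixed in advance. The size of the changes varied, as did which of the 22 passed. Over 18 alternatives that did not leave out a single tumour, LUCAT1 ran from −1.60 to −0.29 and CPHL1P from −1.53 to −0.31. IER3 ran from −1.28 to −0.52, HAL from −1.55 to −0.75, MYEOV from −1.01 to −0.65 and DUSP6 from −3.36 to −2.50. DUSP6, ETV4, PHLDA1, MYEOV, PTGS1, HAL, CYP24A1 and KCNJ12 passed whichever single tumour was left out, and LAPTM5, DUSP5, CEMIP2, CPHL1P and ADGRG3 most often did not. With the replicate number as a block, which the check of pairing does not back, no gene passed in the pooled test (300 at an unadjusted p under 0.05). The cause of the changes below was not tested.

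The count of 22 was 63 with DESeq2, 2700 with limma, 4 against a log2 fold change of 0.5, 2 with the treated tumours as 1 group, 0 with the replicate block with or without a GC correction, 42 with 1 surrogate variable, 55 without Trametinib replicate 4 and RMC-7977 replicate 3, 708 without the 4 libraries apart, 1 without the RMC-7977 group and 61 without the Trametinib group. Without Trametinib replicate 4 it was 167 with DESeq2, 2659 with limma, 51 with RLE scaling and 72 with a GC correction. Leaving out 1 tumour gave 8 to 53. Genes of 1 direction in all groups numbered 63, 2418, 4, 0, 0, 42, 54, 678, 1 and 59 under the same settings (not defined for treated tumours as 1 group), then 157, 2370, 50 and 71, and 8 to 52.

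Genes that differed among inhibitors (193) numbered 1911 with no filter, 534 at a mean CPM of at least 1, 1087 with DESeq2, 7385 with limma, 26 with the replicate block, 65 with block and GC correction, 500 with a GC correction, 336 with 1 surrogate variable, 1283 without the 4 libraries, and 1, 29 and 10 without RMC-7977, RMC-4550 and Cobimetinib. Without Trametinib replicate 4 they numbered 965 with DESeq2, 7337 with limma and 419 with a GC correction, and leaving out 1 tumour gave 55 to 943.

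For RMC-7977 (132) the count was 80 with no filter, 536 with DESeq2, 2943 with limma, 35 against 0.5, 2 with the block, 24 with block and GC correction, 287 with a GC correction, 636 with 1 surrogate variable, 369 without 2 and 1134 without 4 libraries, 337 without Trametinib and 80 without Cobimetinib. Without Trametinib replicate 4 it was 1133, 2835, 514 and 937 with DESeq2, limma, RLE scaling and a GC correction, and leaving out 1 tumour gave 43 to 541. For RMC-4550 (5) it was 3 with total counts or no filter, 35 with DESeq2, 113 with limma, 1 against 0.5, 0 with the block, 2 with block and GC correction, 18 with 1 surrogate variable, 13 and 11 without 2 and 4 libraries, 0 without RMC-7977 or Cobimetinib, 86, 83, 11 and 14 in the 4 fits without Trametinib replicate 4, and 0 to 11 without 1 tumour. For Trametinib (0) it was 1 with total counts, no filter, 2 libraries fewer or no RMC-4550 group, 301 at a mean CPM of at least 1, 369 with DESeq2, 7874 with limma, 2686 without 4 libraries, 24, 8431, 1 and 3 without its replicate 4, and 0 to 1428 without 1 tumour. For Cobimetinib (0) it was 1 with DESeq2, 401 with limma, 8 without 4 libraries, 35, 345 and 1 with DESeq2, limma and a GC correction without Trametinib replicate 4, and 0 to 2 without 1 tumour. The MAPK output score difference stayed within the Vehicle SD of −1.46, at −1.56 to −1.35 without 1 tumour.

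Among named genes the sign of the change differed between settings only in those given here, none of which passed with all tumours. HRAS was 0.0756 with the replicate block, 0.0630 with block and GC correction, 0.117 with a GC correction, 0.0240 with that correction without Trametinib replicate 4, and −0.108 to 0.0032 without 1 tumour. PTPN11 was 0.0427 without the 4 libraries and −0.146 to 0.0060 without 1 tumour. MAP2K1 was −0.0178 without RMC-7977 and −0.0415 to 0.0766 without 1 tumour. MAP2K2 was −0.0248 without RMC-7977, −0.0612 without Cobimetinib and −0.0471 to 0.0724 without 1 tumour. With the block and with block and GC correction ETS2 was 0.20 and 0.19 and KSR1 0.0287 and 0.0468, and with block and GC correction BTC was −0.0051.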
